A study of Arabidopsis thaliana with 26 samples.

Results

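The 45 genes described here are nuclear genes of Arabidopsis thaliana for the proteins that capture light and begin carbon fixation in the chloroplast, out of 33977 gene identifiers in the count files. They were taken by gene name and function, with earlier results of these data known: 4 LHCA genes (antenna of photosystem I), 15 LHCB genes (antenna of photosystem II), 10 genes of photosystem II subunits, 12 of photosystem I subunits and 4 RBCS genes (small subunit of Rubisco). Expression was measured by RNA sequencing of whole plants with root, 10 days old, in the Columbia-0 background. The treated memory line (2 replicates) was an msh1 memory line grown on agar medium with 100 µM 5-azacytidine, and the untreated memory line (2 replicates) was the same line on medium with 0 µM. Treated wild type (3 replicates) and untreated wild type (3 replicates) were Columbia-0 plants on the same media. 5-Azacytidine is a cytidine analogue that inhibits DNA methylation. Memory lines are known to descend from parents with suppressed MSH1, which encodes a protein of both plastids and mitochondria that acts on organelle DNA, and no longer carry the suppressing transgene. How many plants a sample pooled, and whether replicates came from separate cultures, is not in the labels, and the p-values below therefore measure only the spread between these samples, which may be technical.

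Light is absorbed by chlorophyll bound to antenna proteins and passed to the reaction centres of photosystems II and I, which drive electrons from water towards ferredoxin. The cores of both photosystems and the large subunit of Rubisco are encoded in the plastid, while the antenna, the outer subunits and the small subunit of Rubisco are encoded in the nucleus and imported. Their nuclear genes are known to be switched on by light, to follow the circadian clock, and to be lowered by signals from disturbed plastids. In bulk samples of whole plants, fewer green cells and less RNA per green cell cannot be told apart.

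Summed over 2 or 3 technical libraries, each replicate held 11412839 to 13544859 gene counts, and a member held 151 to 253013 of them. All 45 members passed the filter on low counts. Levels are given as CPM, gene counts per 1000000 after TMM scaling, and genes are compared with each other only as CPM per kilobase of exon. MSH1 itself ranged from 13.2 to 14.7 CPM in the treated memory line, 10.6 to 13.3 CPM in the untreated memory line, 12.4 to 20.4 CPM in treated wild type and 8.67 to 14.0 CPM in untreated wild type. Reads that aligned to more than 1 place, which are outside the gene counts, made up 25.7% of the reads of memory-line replicate 2 and 6.49% to 13.6% of those of the other replicates. All 12 shoot and leaf markers and 17 of 18 root markers were above 0 in every replicate, with CASP5 at 0 in some.

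Many members are near-copies of each other, so that the sequences themselves decide how far their reads can be told apart. The first 60 coding bases of the clustered genes LHCB1.1, LHCB1.2 and LHCB1.3 (chromosome 1, chr1:10475833-10475892, chr1:10473187-10473246 and chr1:10478071-10478130 in TAIR10.1, on the minus, minus and plus strand) and of RBCS1B, RBCS2B and RBCS3B (chromosome 5, chr5:15385096-15385155, chr5:15381919-15381978 and chr5:15378247-15378306, all on the minus strand) show this. They are written 5′ to 3′, from RefSeq's annotation of TAIR10.1, with capitals at the positions that differ within each trio.
LHCB1.1: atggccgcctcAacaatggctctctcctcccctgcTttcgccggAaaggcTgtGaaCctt
LHCB1.2: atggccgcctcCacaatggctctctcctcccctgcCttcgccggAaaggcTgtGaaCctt
LHCB1.3: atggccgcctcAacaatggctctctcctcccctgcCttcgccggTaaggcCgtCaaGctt
RBCS1B: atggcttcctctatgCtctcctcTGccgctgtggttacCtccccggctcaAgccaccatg
RBCS2B: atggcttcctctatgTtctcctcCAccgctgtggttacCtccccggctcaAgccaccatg
RBCS3B: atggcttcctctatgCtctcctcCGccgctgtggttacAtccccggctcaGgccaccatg
The LHCB1 trio differs at 6 of these 60 bases and the RBCS trio at 5. Over the whole coding sequence, the pairs of the LHCB1 trio are 95.6% to 96.4% identical, and those of the RBCS trio 96.7% to 97.3%. Even so, most 100-base stretches of the transcripts, the length of the reads, occur once in the genome: 87.6% of those of LHCB2.2 and 87.9% of those of RBCS3B were unique, and every other member had a higher share. Values of single LHCB1, LHCB2 and RBCS genes are therefore uncertain to the extent that reads of the remaining stretches were dropped or split, and values summed over each family are given beside them where they matter.

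Promoter regions of the members hold short motifs that are known from light- and clock-regulated genes. The 250 bases before the annotated start are shown for the rare antenna genes LHCB4.3 and LHCB7, the members that passed the test below, for LHCB1.3, the LHCB gene with the highest level, and for RBCS2B, the RBCS gene with the largest difference between the lines. Capitals mark the motifs searched on both strands: G-box CACGTG, I-box GATAAG, evening element AAAATATCT, CCA1-binding site AAAAATCT and CCAATC. The regions are chr2:16745378-16745627 (plus strand), chr1:28728748-28728997 (plus), chr1:10477635-10477884 (plus) and chr5:15382072-15382321 (minus), from RefSeq's TAIR10.1.
LHCB4.3: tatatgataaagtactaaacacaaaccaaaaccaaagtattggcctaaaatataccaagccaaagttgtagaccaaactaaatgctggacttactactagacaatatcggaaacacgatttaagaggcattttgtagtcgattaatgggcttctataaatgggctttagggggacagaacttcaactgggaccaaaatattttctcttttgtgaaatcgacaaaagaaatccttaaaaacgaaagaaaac
LHCB7: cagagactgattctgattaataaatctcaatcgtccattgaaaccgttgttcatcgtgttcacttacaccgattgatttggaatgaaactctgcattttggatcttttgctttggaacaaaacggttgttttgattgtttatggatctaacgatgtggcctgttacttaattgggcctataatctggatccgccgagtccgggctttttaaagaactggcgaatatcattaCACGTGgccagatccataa
LHCB1.3: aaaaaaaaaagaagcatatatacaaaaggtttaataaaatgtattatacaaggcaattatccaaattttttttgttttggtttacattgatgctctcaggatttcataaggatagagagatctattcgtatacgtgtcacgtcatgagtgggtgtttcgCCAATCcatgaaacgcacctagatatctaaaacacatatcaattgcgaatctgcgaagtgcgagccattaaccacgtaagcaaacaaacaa
RBCS2B: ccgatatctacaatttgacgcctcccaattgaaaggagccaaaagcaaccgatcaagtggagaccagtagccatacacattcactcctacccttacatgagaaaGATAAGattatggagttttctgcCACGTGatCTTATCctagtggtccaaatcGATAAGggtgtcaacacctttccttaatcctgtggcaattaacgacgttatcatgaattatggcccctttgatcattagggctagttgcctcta
The RBCS2B region holds 3 I-boxes and a G-box between 146 and 89 bases before the start, an arrangement not seen in the other 3 regions. LHCB7 has a G-box that begins 19 bases before its start, LHCB1.3 has a CCAATC that begins 91 bases before it, and LHCB4.3 has none of the 5 motifs in this window. Among the 45 members, 10 (22.2%) hold a G-box, against 5.39% of the 37897 such regions in the genome. CCAATC stands in 11 members (24.4%), 7 of them LHCB, 3 LHCA and 1 photosystem II gene, against 10.5% of all regions. An I-box stands in 10 members (22.2%) against 12.7%, a CCA1-binding site in 5 (11.1%) against 6.11%, and the evening element in 0 members against 2.11%. A match describes these letters only and is no evidence of binding.

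The main features of the data are these. On the CPM scale, the members as a whole were at similar levels in treated and untreated wild type, while both pairs of memory-line replicates lay far apart. After adjustment over all genes tested, only the rare antenna genes LHCB4.3, lower in the untreated memory line than in untreated wild type, and LHCB7, lower in treated than in untreated wild type, passed edgeR's test. The ratio of summed LHCB to summed RBCS messages was higher in both untreated memory-line replicates than in every other replicate. The other class ratios that were computed did not separate these replicates from all the rest. By edgeR, no member was called for azacytidine within the memory line or for the memory line on azacytidine. Nor was any member called by edgeR for the difference between both azacytidine responses. Limma voom on the technical libraries called 3, 5 and 2 members in these comparisons. It used a single correlation between technical libraries for all genes. For members whose replicates lay far apart, technical libraries may then count partly as replicates, and its p-values may be too small. Over all 22031 genes tested, voom called 683 for azacytidine in the memory line and edgeR 163.

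The members took a large share of all gene counts. That share was 8.28% and 4.64% in the treated memory line, 5.40% and 9.82% in the untreated memory line, 7.49%, 7.73% and 7.42% in treated wild type, and 7.55%, 7.98% and 6.79% in untreated wild type. Their summed level was 88148 and 42415 CPM in the treated memory line, 49829 and 105327 CPM in the untreated memory line, 76474, 78313 and 73923 CPM in treated wild type and 78759, 80624 and 65492 CPM in untreated wild type. Memory-line replicate 1 and treated memory-line replicate 2 lay below every wild-type replicate, and memory-line replicate 2 and treated memory-line replicate 1 lay above every one, so the groups overlapped wherever both memory-line groups were concerned. Technical libraries of the same replicate gave shares within 0.523 percentage points of each other, and within 0.038 points in all memory-line replicates.

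**Figure D1:**
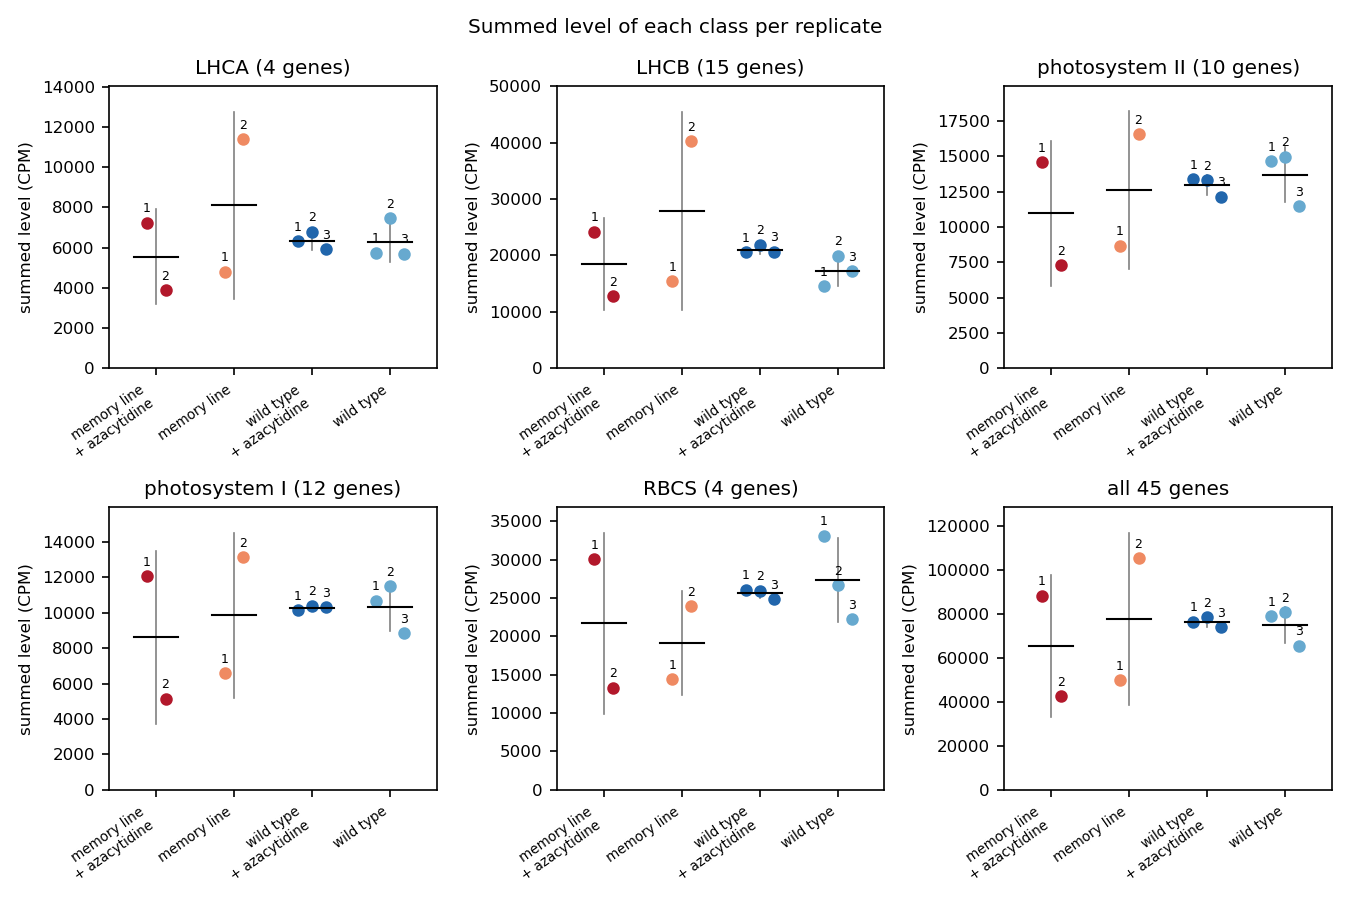
Summed level of each class of genes and of all 45 genes (CPM, linear axis from 0) in each replicate, with replicate numbers above the points, the mean as a black bar and 1 SD as a grey line. In every panel the 2 replicates of each memory-line group stand far apart, with replicate 2 the higher in the untreated line and replicate 1 the higher in the treated line, while the 3 treated wild-type replicates stand close together.

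The gap between the memory-line replicates ran through almost the whole set. In the untreated memory line, 44 of the 45 members were higher in replicate 2 than in replicate 1, with LHCB4.3 the exception, against 49.8% of all genes tested. In the treated memory line, all 45 members were higher in replicate 1 than in replicate 2, against 50.03% of all genes tested. The median ratio of the higher to the lower replicate was 2.21 in the treated memory line and 2.07 in the untreated memory line over the members. Over the 1922 genes with a mean of at least 100 CPM, it was 1.18 in the treated and 1.17 in the untreated memory line. Among the 3 replicates of each wild-type group the median ratio of highest to lowest was 1.16 on azacytidine and 1.403 without it, against 1.15 and 1.22 over those 1922 genes.

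Within the members the LHCB2 genes, which encode proteins of the main antenna trimer, spread most. In the untreated memory line LHCB2.3, LHCB2.2 and LHCB2.1 differed 4.28-fold, 4.21-fold and 4.21-fold between replicates, and in the treated memory line LHCB2.3 differed 4.15-fold. RBCS1B differed only 1.16-fold between the untreated memory-line replicates, and LHCB7 only 1.11-fold between the treated ones. Untreated wild type had its own outlying pattern among the antenna genes, in which 8 of the 15 LHCB genes differed by over 2-fold between the highest and lowest replicate, compared with 0 of the other 30 members. Summed over each list, other genes of the pathway were high and low in the same replicates, except for the regulators in the treated memory line. The regulators summed to 493.1 and 532.4 CPM there and to 531.8 and 655.8 CPM in the untreated memory line. The 6 Calvin-Benson genes summed to 8319 and 4658 CPM in the treated memory line and 5471 and 8868 CPM in the untreated memory line, and the 19 chlorophyll synthesis genes to 3742 and 2548 CPM and 3166 and 4674 CPM in the same groups. The 9 clock genes summed to 418 and 329.7 CPM in the treated memory line, 539 and 801 CPM in the untreated memory line, 466, 532 and 473 CPM in treated wild type and 449.8, 620.5 and 555 CPM in untreated wild type. The 12 shoot and leaf markers summed to 196 and 205 CPM in the treated and 189.6 and 210.5 CPM in the untreated memory line, and the 18 root markers to 109.8 and 108 CPM and 132 and 125 CPM, a much smaller gap than that of the members. The share of reads with several alignments was 10.8% and 13.6% in the treated and 9.96% and 25.7% in the untreated memory line. The part of the clock, of tissue proportions or of these reads in the gap between replicates was not tested.

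**Figure D2:**
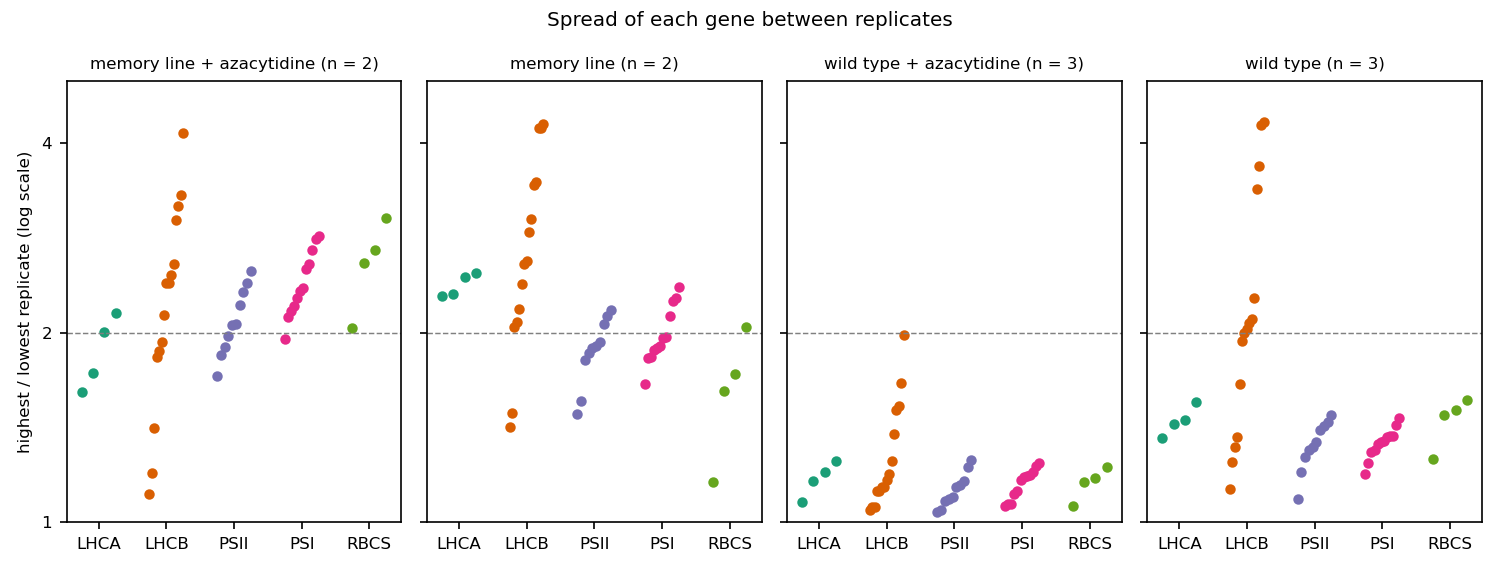
Ratio of the highest to the lowest replicate for each of the 45 genes (1 point per gene, log axis), by class and group, with a dashed line at 2. Most points of both memory-line groups lie near or above 2, treated wild type lies below 2 throughout, and in untreated wild type only LHCB genes pass 2.

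LHCA1 to LHCA4 encode the 4 antenna proteins that form a belt along one side of photosystem I. Per kilobase they ranged from 882 CPM (LHCA3) to 1444 CPM (LHCA1) over all replicates. LHCA1 stood at 2134 and 993 CPM in the treated memory line, 1442 and 3322 CPM in the untreated memory line, 1639, 1764 and 1745 CPM in treated wild type and 1503, 2181 and 1653 CPM in untreated wild type. LHCA3 stood at 1658 and 827 CPM in the treated memory line, 996 and 2442 CPM in the untreated memory line, 1490, 1528 and 1273 CPM in treated wild type and 1323, 1647 and 1152 CPM in untreated wild type. LHCA4 stood at 1543 and 957 CPM in the treated memory line, 1308 and 2991 CPM in the untreated memory line, 1592, 1766 and 1412 CPM in treated wild type and 1183, 1837 and 1565 CPM in untreated wild type. In each of these genes the highest value was that of memory-line replicate 2 and the lowest that of treated memory-line replicate 2, so that the memory-line replicates bracketed wild type. By edgeR none of the 4 genes was called in any comparison, and voom called LHCA4 for azacytidine in the memory line (adjusted p = 0.0296). For LHCA4, which had the largest changes, the log2 fold change was -0.78 (95% interval -1.56 to -0.0031) for azacytidine in the memory line and 0.49 (-0.21 to 1.19) for the untreated memory line over wild type. For LHCA3 on azacytidine, the memory line differed from wild type by -0.20 (-1.01 to 0.60).

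The 5 LHCB1 genes and the 3 LHCB2 genes encode the bulk of the light-harvesting trimers of photosystem II. LHCB1.3 had the highest level per kilobase of all LHCB genes, at 6055 CPM, and stood at 9114 and 4874 CPM in the treated memory line, 5406 and 12914 CPM in the untreated memory line, 7599, 8047 and 7724 CPM in treated wild type and 5934, 6711 and 6155 CPM in untreated wild type. LHCB1.2 was measured at 2542 and 989.7 CPM in the treated memory line, 1284 and 3337 CPM in the untreated memory line, 2197, 2232 and 2108 CPM in treated wild type and 807, 1604 and 1671 CPM in untreated wild type. For LHCB1.1 the values were 1053 and 349 CPM in the treated memory line, 959 and 2901 CPM in the untreated memory line, 749, 843 and 1146 CPM in treated wild type and 448, 978 and 1018 CPM in untreated wild type. In treated wild type all 3 replicates of LHCB1.2 and LHCB1.3 lay above all 3 untreated replicates, whereas LHCB1.1 overlapped. For azacytidine in wild type the log2 fold change was 0.68 for LHCB1.2 (SE 0.43, edgeR adjusted p = 0.375) and 0.31 for LHCB1.3 (SE 0.31, edgeR adjusted p = 0.569), and edgeR called neither, while voom called LHCB1.2 (adjusted p = 0.0148). With the 3 genes summed to a single feature, that change was 0.37 (95% interval -0.35 to 1.08).

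LHCB1.4 had the largest positive difference between the lines. It stood at 426 and 199 CPM in the treated memory line, 381 and 1305 CPM in the untreated memory line, 245, 276 and 338 CPM in treated wild type and 85.6, 364 and 251 CPM in untreated wild type. Both untreated memory-line replicates were above all untreated wild-type replicates, but memory-line replicate 1 exceeded wild-type replicate 2 only slightly. The log2 fold change of the untreated memory line over wild type was 1.85 (SE 0.71, edgeR adjusted p = 0.271), that of azacytidine in the memory line was -1.43 (95% interval -3.33 to 0.47), and that of the difference between both azacytidine responses was -1.73 (-4.16 to 0.70). None of these was called by edgeR, while voom called all 3 (adjusted p = 0.000232, 0.0362 and 0.0393). LHCB1.1, with -1.46 for azacytidine in the memory line (-3.05 to 0.12), was not called by edgeR and was called by voom (adjusted p = 0.00460). Summed with LHCB1.5, LHCB1.4 gave a difference between the untreated lines of 1.44 (0.48 to 2.40, edgeR adjusted p = 0.141).

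Among the LHCB2 genes, LHCB2.1 stood at 229 and 69.5 CPM in the treated memory line, 148 and 624 CPM in the untreated memory line, 209, 209.8 and 237 CPM in treated wild type and 63.6, 274 and 197 CPM in untreated wild type. LHCB2.3 stood at 84.8 and 20.4 CPM in the treated memory line, 57.5 and 246 CPM in the untreated memory line, 41.7, 56.3 and 82.7 CPM in treated wild type and 29.7, 109 and 81.3 CPM in untreated wild type. Wild-type replicate 1 was far below the other untreated wild-type replicates in both, as it was for LHCB1.1, LHCB1.4 and LHCB2.2. The intervals were accordingly wide: for LHCB2.3 azacytidine in the memory line gave -1.53 (-3.92 to 0.86), and for LHCB2.1 the memory line on azacytidine gave -0.55 (-2.57 to 1.47). Changes of several fold in either direction lay within these intervals. Voom called LHCB2.2 higher in the untreated memory line than in wild type (1.14, adjusted p = 0.0365).

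LHCB4.3 is a rare isoform of the minor antenna protein CP29, which links the trimers to the photosystem II core. It stood at 24.9 and 17.7 CPM in the treated memory line, 28.3 and 19.0 CPM in the untreated memory line, 43.4, 57.3 and 34.5 CPM in treated wild type and 119, 78.9 and 58.7 CPM in untreated wild type. Both untreated memory-line replicates were below all 3 untreated wild-type replicates, both treated memory-line replicates were below all 3 treated wild-type replicates, and all 3 treated wild-type replicates were below all 3 untreated ones. Its mean was 23.6 ± 6.56 CPM in the untreated memory line (SD, n = 2) and 85.6 ± 30.7 CPM in untreated wild type (SD, n = 3). In the untreated memory line LHCB4.3 fell, with a log2 fold change of -1.85 against wild type (SE 0.35, 95% interval -2.64 to -1.06, edgeR adjusted p = 0.0440). On azacytidine the difference between the lines was -1.09 (SE 0.34, edgeR adjusted p = 0.274), and that for azacytidine was -0.92 in wild type (SE 0.29, edgeR adjusted p = 0.0945) and -0.16 in the memory line (-0.9996 to 0.68), none of which edgeR called. The difference on azacytidine was called by DESeq2 (adjusted p = 0.0277) and by voom (0.00630), and the change in wild type by DESeq2 (0.00964) and by voom (0.000210).

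The call of LHCB4.3 was close to the threshold. It was lost without wild-type replicate 1 (edgeR adjusted p = 0.0805) or 2 (0.104), memory-line replicate 1 (0.0765) or 2 (0.242), treated wild-type replicate 1 (0.0676) or 2 (0.0519), and treated memory-line replicate 1 (0.0544) or 2 (0.0526), while the log2 fold change stayed between -2.17 and -1.54. Relative to the other LHCB4 genes the pattern was the same. As a share of the summed LHCB4 level per kilobase, LHCB4.3 made up 0.979 and 1.32% in the treated memory line, 1.65 and 0.513% in the untreated memory line, 1.70, 2.17 and 1.60% in treated wild type and 4.27, 2.72 and 2.67% in untreated wild type. LHCB4.1, the main CP29 gene, and LHCB4.2 had log2 fold changes of -0.02 (-0.70 to 0.65) and 0.52 (-0.65 to 1.68) between the untreated lines.

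LHCB7 encodes another antenna protein of low abundance and had the lowest level of all members, 14.6 CPM per kilobase. It stood at 14.6 and 13.2 CPM in the treated memory line, 17.3 and 24.5 CPM in the untreated memory line, 13.3, 11.7 and 14.0 CPM in treated wild type and 26.8, 25.8 and 16.2 CPM in untreated wild type. All 3 treated wild-type replicates lay below all 3 untreated ones, and both treated memory-line replicates lay below both untreated ones. In wild type LHCB7 fell on azacytidine, with a log2 fold change of -0.82 (SE 0.20, 95% interval -1.24 to -0.40, edgeR adjusted p = 0.0280). In the memory line the change was -0.58 (SE 0.24, edgeR adjusted p = 0.480), and the difference between both responses was 0.24 (-0.43 to 0.90); neither was called. The call in wild type was lost without wild-type replicate 1 (edgeR adjusted p = 0.115) or 2 (0.118) and without treated wild-type replicate 1 (0.0986), 2 (0.126) or 3 (0.0607), with log2 fold changes of -0.87 to -0.69. The remaining LHCB genes, LHCB3 of the trimers and LHCB5 and LHCB6 of the minor antenna, had log2 fold changes of 0.50, 0.16 and 0.32 for azacytidine in wild type and of 0.80, 0.21 and 0.51 for the untreated memory line, and none was called.

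**Figure D3:**
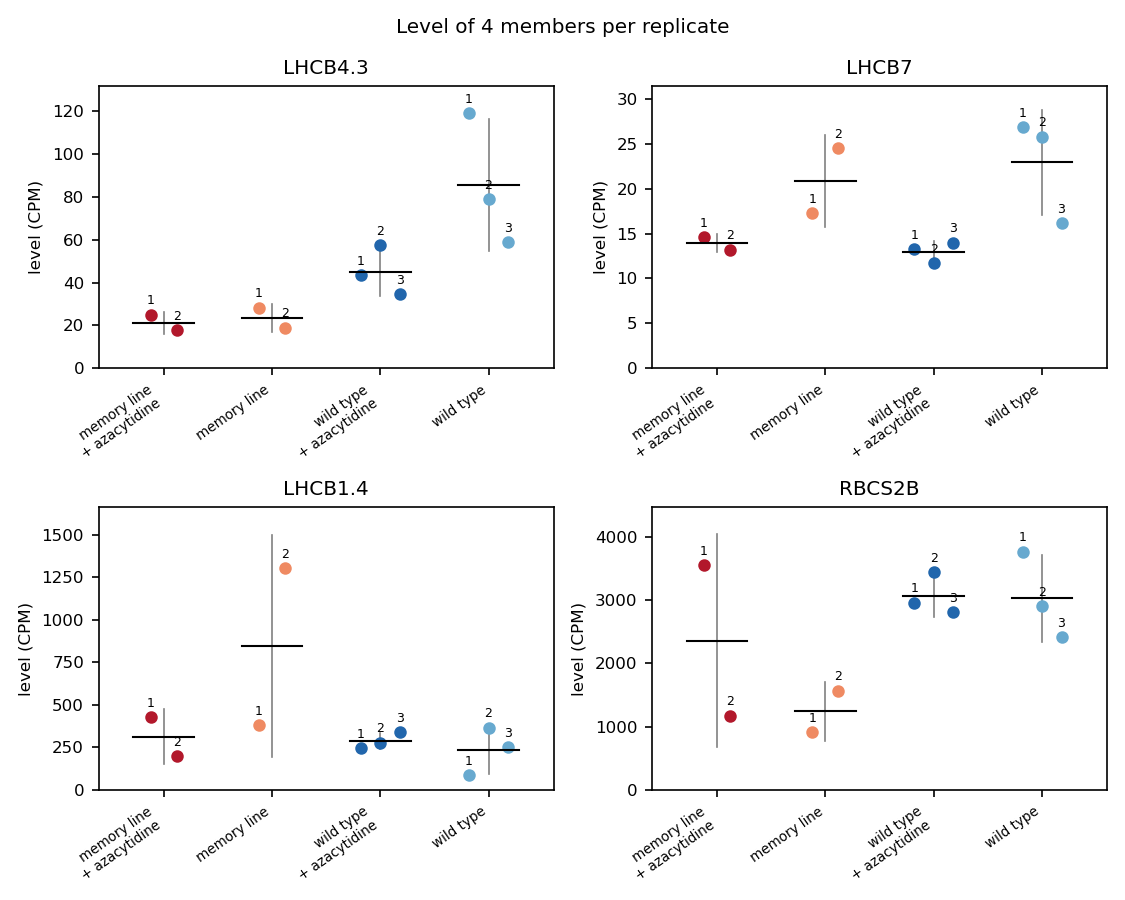
Level (CPM, linear axis from 0) of LHCB4.3, LHCB7, LHCB1.4 and RBCS2B in each replicate, with replicate numbers, the mean as a black bar and 1 SD as a grey line. LHCB4.3 lies between 17.7 and 28.3 CPM in all 4 memory-line replicates and at 58.7 CPM or more in untreated wild type, and LHCB7 lies between 11.7 and 14.6 CPM in all 5 treated replicates.

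The 10 photosystem II genes encode the proteins that hold the oxygen-evolving centre on the lumen side (PSBO, PSBP and PSBQ), small subunits of the membrane part (PSBR, PSBW, PSBX and PSBY) and PSBS, which switches on the thermal dissipation of excess light. PSBR had the highest level of the class per kilobase, at 2657 CPM, followed by PSBO1 at 1999 CPM. PSBO1, with the highest CPM when length is not considered, stood at 3283 and 1728 CPM in the treated memory line, 2117 and 3931 CPM in the untreated memory line, 2869, 2991 and 2771 CPM in treated wild type and 3970, 3688 and 2791 CPM in untreated wild type. PSBO2 stood at 832 and 359 CPM in the treated memory line, 475 and 741 CPM in the untreated memory line, 765, 763 and 698 CPM in treated wild type and 842, 829.9 and 629 CPM in untreated wild type. The treated wild-type replicates of both genes lay within the range of the untreated ones, except that replicate 3 of PSBO1 was just below it. PSBP1 was measured at 2054 and 998 CPM in the treated memory line, 1248 and 2362 CPM in the untreated memory line, 1880, 1876 and 1652 CPM in treated wild type and 1779, 1827 and 1518 CPM in untreated wild type. PSBQ1 had 938 and 475 CPM in the treated memory line, 554 and 823 CPM in the untreated memory line, 947, 941 and 827 CPM in treated wild type and 862, 920.4 and 699.6 CPM in untreated wild type. PSBQ2 had 917 and 367 CPM in the treated memory line, 481 and 917 CPM in the untreated memory line, 866, 798 and 744 CPM in treated wild type and 637, 759 and 582 CPM in untreated wild type. In PSBO1, PSBO2, PSBP1 and PSBQ2 the treated memory-line replicates stood on either side of the treated wild-type replicates, and in PSBQ1 replicate 1 was just below treated wild-type replicates 1 and 2. PSBR stood at 2170 and 1272 CPM in the treated memory line, 1392 and 3024 CPM in the untreated memory line, 1942, 1906 and 1783 CPM in treated wild type and 2502, 2857 and 1982 CPM in untreated wild type, PSBW at 1055 and 573 CPM in the treated memory line, 652 and 1385 CPM in the untreated memory line, 1068, 1023 and 851 CPM in treated wild type and 997, 1113 and 876 CPM in untreated wild type. All 3 treated wild-type replicates of PSBR were below the 3 untreated ones, by a log2 fold change of -0.38 (SE 0.28, edgeR adjusted p = 0.428), which edgeR did not call.

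PSBS stood at 1151 and 521 CPM in the treated memory line, 605 and 1094 CPM in the untreated memory line, 1270, 1220 and 1038 CPM in treated wild type and 1027, 1046 and 961 CPM in untreated wild type. Treated memory-line replicate 1 lay within the range of treated wild type and replicate 2 below it, with a log2 fold change of -0.49 between them (-1.17 to 0.18). By edgeR no photosystem II gene was called in any comparison, and voom called PSBS (adjusted p = 0.0142) and PSBQ1 (0.0448) lower in the memory line than in wild type on azacytidine. Log2 fold changes of the class were -0.38 to 0.28 for azacytidine in wild type, -0.36 to 0.04 for azacytidine in the memory line, -0.33 to 0.08 for the untreated memory line and -0.49 to -0.11 for the memory line on azacytidine. Within the PSBO pair, PSBO2 made up 22.4 and 19.1% of the level per kilobase in the treated memory line, 20.3 and 17.6% in the untreated memory line, 23.2, 22.5 and 22.3% in treated wild type and 19.4, 20.4 and 20.4% in untreated wild type. The share was above that of all untreated wild-type replicates in all 3 treated ones.

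The 12 photosystem I genes encode the stromal subunits on which ferredoxin docks (PSAD and PSAE), the lumen side near plastocyanin (PSAF and PSAN), subunits beside the LHCA belt (PSAG and PSAK), and those on the opposite side, where antenna trimers can attach (PSAH, PSAL and PSAO). Per kilobase PSAO had the highest level of the class, at 1615 CPM. PSAL, at 1229 CPM per kilobase but with the highest CPM when length is not considered, stood at 1600 and 706 CPM in the treated memory line, 903 and 1769 CPM in the untreated memory line, 1505, 1417 and 1457 CPM in treated wild type and 1629, 1748 and 1281 CPM in untreated wild type. PSAD1 stood at 1116 and 474 CPM in the treated memory line, 616 and 1165 CPM in the untreated memory line, 1147, 1080 and 982 CPM in treated wild type and 905, 1115 and 782 CPM in untreated wild type. PSAD2, its less abundant copy, had 304 and 107 CPM in the treated memory line, 171 and 405 CPM in the untreated memory line, 218, 268 and 232 CPM in treated wild type and 178, 245 and 189 CPM in untreated wild type. Treated and untreated wild type overlapped in all 3 genes. PSAE2 had 453 and 232 CPM in the treated memory line, 286 and 521 CPM in the untreated memory line, 373, 332 and 365 CPM in treated wild type and 528, 542 and 369.8 CPM in untreated wild type. For PSAG the values were 1208 and 559 CPM in the treated memory line, 667 and 1513 CPM in the untreated memory line, 1152, 1091 and 977 CPM in treated wild type and 1082, 1226 and 948 CPM in untreated wild type. PSAE2 had the largest change of the class in treated wild type, -0.43 on the log2 scale (-1.03 to 0.17), with treated replicate 1 just above untreated replicate 3.

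PSAH1 was measured at 572 and 227 CPM in the treated memory line, 333 and 552 CPM in the untreated memory line, 442, 419.8 and 522 CPM in treated wild type and 595, 632 and 461 CPM in untreated wild type. PSAH2, its paralogue, was measured at 400.2 and 142 CPM in the treated memory line, 224 and 419 CPM in the untreated memory line, 393, 388 and 367 CPM in treated wild type and 266, 353 and 318 CPM in untreated wild type. Within wild type, the 3 treated replicates of PSAH2 were above the 3 untreated ones and its log2 fold change was 0.29 (-0.49 to 1.08), while that of PSAH1 was -0.29 (-0.97 to 0.40) with overlapping replicates. PSAH2 made up 56.5 and 53.7% of the PSAH level per kilobase in the treated memory line, 55.5 and 58.5% in the untreated memory line, 62.2, 63.1 and 56.6% in treated wild type and 45.3, 50.9 and 56.1% in untreated wild type. By edgeR no photosystem I gene was called in any comparison. Voom called PSAE2 lower for azacytidine in wild type (adjusted p = 0.0372), and PSAH2 (0.0260) and PSAD1 (0.0483) lower in the memory line on azacytidine. Their log2 fold changes ran from -0.43 to 0.29 for azacytidine in wild type, from -0.49 to -0.02 for azacytidine in the memory line, from -0.35 to 0.50 for the untreated memory line, and from -0.50 to -0.06 for the memory line on azacytidine.

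The 4 RBCS genes encode the small subunit of Rubisco, the enzyme that fixes carbon dioxide. RBCS1A had the highest level of all members, 11957 CPM per kilobase, and stood at 18540 and 9110 CPM in the treated memory line, 9671 and 15619 CPM in the untreated memory line, 16462, 15618 and 15532 CPM in treated wild type and 21023, 16070 and 13968 CPM in untreated wild type. RBCS1B stood at 2816 and 1043 CPM in the treated memory line, 1134 and 1315 CPM in the untreated memory line, 2168, 1911 and 2246 CPM in treated wild type and 2001, 1710 and 1584 CPM in untreated wild type. RBCS2B stood at 3549 and 1170 CPM in the treated memory line, 912 and 1568 CPM in the untreated memory line, 2954, 3435 and 2804 CPM in treated wild type and 3763, 2904 and 2408 CPM in untreated wild type. Both untreated memory-line replicates of RBCS1B and RBCS2B lay below all 3 untreated wild-type replicates, and those of RBCS1A did not. RBCS3B stood at 5153 and 1999 CPM in the treated memory line, 2666 and 5432 CPM in the untreated memory line, 4501, 4964 and 4288 CPM in treated wild type and 6335, 6007 and 4281 CPM in untreated wild type, with overlap in every comparison. The untreated memory line had log2 fold changes against wild type of -0.43 (-1.17 to 0.31) for RBCS1A, -0.53 (-1.22 to 0.16) for RBCS1B and -0.45 (-1.29 to 0.39) for RBCS3B. For RBCS2B it was -1.29 (SE 0.42, edgeR adjusted p = 0.166), and edgeR called no RBCS gene with all replicates in the fit. RBCS2B was called lower by edgeR without treated memory-line replicate 1 or 2 (adjusted p = 0.0370 and 0.0356), and voom called RBCS2B (3.34e-05), RBCS1A (0.0394) and RBCS1B (0.0431) lower. With RBCS1B, RBCS2B and RBCS3B summed to a single feature, the difference between the untreated lines was -0.67 (-1.49 to 0.16). Azacytidine in the memory line gave 0.93 for RBCS2B (-0.04 to 1.90) and 0.66 for RBCS1B (-0.09 to 1.41), the largest positive changes of any member there.

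As a share of its family, a measure in which the total level cancels out, RBCS2B made up 16.1 and 12.03% of the RBCS level per kilobase in the treated memory line, 8.79 and 9.04% in the untreated memory line, 15.4, 17.9 and 15.4% in treated wild type and 15.4, 14.8 and 14.7% in untreated wild type. The untreated memory-line replicates lay close together, although their summed RBCS levels were 14382 and 23933 CPM, and both were below all other replicates. RBCS1A made up 62.1 and 69.1% in the treated memory line, 68.8 and 66.4% in the untreated memory line, 63.4, 60.02 and 62.9% in treated wild type and 63.4, 60.5 and 63.1% in untreated wild type. These shares were not tested.

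The balance between the antenna and Rubisco was described by the summed CPM of the 15 LHCB genes over that of the 4 RBCS genes. This ratio was 0.805 and 0.958 in the treated memory line, 1.07 and 1.68 in the untreated memory line, 0.788, 0.844 and 0.831 in treated wild type and 0.440, 0.749 and 0.775 in untreated wild type. Both untreated memory-line replicates were above all 8 other replicates, and the 3 treated wild-type replicates were above the 3 untreated ones, although only just above replicate 3. Memory-line replicate 1 had an LHCB sum of 15405 CPM and an RBCS sum of 14382 CPM, and replicate 2 had 40280 and 23933 CPM. In untreated wild type the LHCB sum was 14574.5 to 19986.7 CPM and the RBCS sum 22241.4 to 33121.7 CPM. Against that range, replicate 1 was low in RBCS and replicate 2 was high in LHCB. The mean was 1.38 ± 0.433 in the untreated memory line (SD, n = 2) and 0.655 ± 0.186 in untreated wild type (SD, n = 3). Wild-type replicate 1, with a ratio of 0.440, was the lowest of the 10. Other class ratios did not set the untreated memory line apart in this way. Summed LHCA and LHCB over summed photosystem subunits was 1.327 and 1.739 there and 1.178 and 1.336 in the treated memory line. Photosystem I over photosystem II was 0.759 and 0.792 in the untreated memory line, within the 0.703 to 0.850 of the other replicates. None of these ratios was tested, because the genes they sum were chosen with earlier results known.

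**Figure D4:**
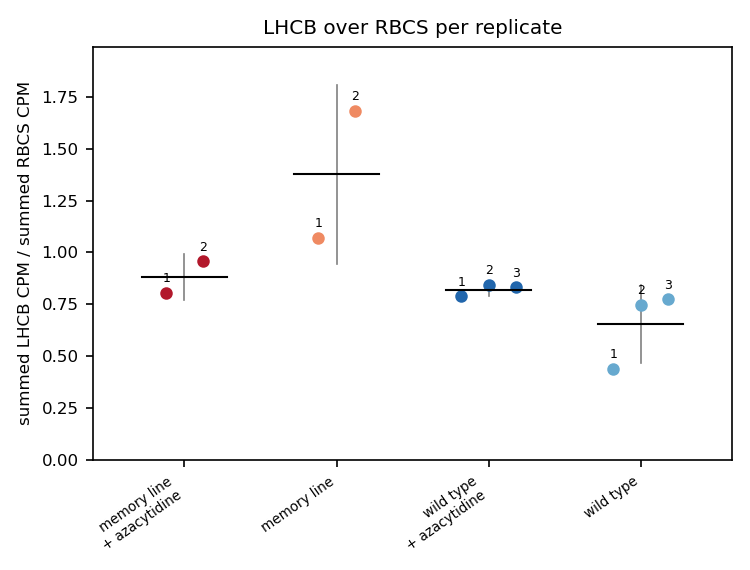
Summed CPM of the 15 LHCB genes over summed CPM of the 4 RBCS genes in each replicate (linear axis from 0), with replicate numbers, the mean as a black bar and 1 SD as a grey line. The untreated memory line stands at 1.07 and 1.68, and every other replicate is below 1.

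The effect of azacytidine in wild type was assessed with edgeR's quasi-likelihood test, Benjamini-Hochberg adjusted over 22031 genes and called at an adjusted p under 0.05. Of the 45 members 1 was called lower, LHCB7, and 0 were called higher, against 3.37% of all genes tested called lower and 3.02% higher. By replicates alone, 5 members lay wholly above untreated wild type (LHCB1.2, LHCB1.3, LHCB3, LHCB6 and PSAH2) and 3 wholly below it (LHCB4.3, LHCB7 and PSBR), against 15.2% of all genes above and 15.2% below. The median log2 fold change of the members was 0.06, with 25 positive and 20 negative values, beside 0.00 over all genes tested. LHCB genes had a median of 0.29, but this was -0.01 without wild-type replicate 1. For 29 members the 95% interval lay within 1 log2 unit of 0, so changes of over 2-fold were outside the interval for these. All intervals use a single spread per gene over all 4 groups, although the members spread more in the memory line than in wild type. Of the 45 members 2 had an unadjusted p under 0.05 by edgeR, against 5282 of the 22031 genes tested. Without wild-type replicate 3 there were 2 calls, LHCB7 and LHCB4.3 (edgeR adjusted p = 0.0310).

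Azacytidine in the memory line gave no call among the members by edgeR, against 0.74% of all genes tested called in either direction. At an unadjusted p under 0.05 by edgeR there were 2 members, LHCA4 and LHCB7, against 1979 of the 22031 genes tested. DESeq2 called 0 members, against 384 of all genes. Voom called LHCB1.1, LHCB1.4 and LHCA4, all lower, against 683 of all genes in either direction. LHCB7 alone had replicates wholly below those of the untreated memory line, and 0 members lay wholly above it, against 16.1% of all genes below and 19.9% above. The log2 fold change was negative for 41 members and positive for 4, with a median of -0.27 beside 0.01 over all genes tested. LHCB genes had a median of -0.58 and RBCS genes of 0.39. These medians rested on single libraries: that of the members was -0.70 without memory-line replicate 1, 0.32 without replicate 2, -0.91 without treated memory-line replicate 1 and 0.12 without treated replicate 2. Without memory-line replicate 1, LHCB1.5 was called (-1.52, edgeR adjusted p = 0.0350), and without treated memory-line replicate 2, RBCS1B was called (1.18, edgeR adjusted p = 0.0338). The interval lay within 1 log2 unit of 0 for 16 members.

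Without azacytidine, the memory line had 1 member called lower than wild type by edgeR, LHCB4.3, and 0 called higher, against 0.477% of all genes tested called lower and 0.694% higher. LHCB1.4 was the member whose replicates lay wholly above wild type, and LHCB4.3, RBCS1B and RBCS2B lay wholly below, against 14.4% of all genes above and 15.3% below. The median was 0.03, beside 0.00 over all genes tested, with 24 positive and 21 negative values. Classes went in different directions: the median was 0.37 for LHCA, 0.76 for LHCB, -0.11 for photosystem II, -0.07 for photosystem I and -0.49 for RBCS, and 12 of the 15 LHCB genes were positive while all 4 RBCS genes were negative. Without memory-line replicate 2 the LHCA and LHCB medians were -0.38 and -0.21 and the RBCS median was -0.93, and without replicate 1 they were 0.86, 1.29 and -0.28, so the sign of RBCS held in both cases and that of the antenna did not. An unadjusted p under 0.05 by edgeR was reached by 4 members, LHCB1.4, LHCB1.5, LHCB4.3 and RBCS2B, against 3503 of the 22031 genes tested. Without treated memory-line replicate 1 or 2, RBCS2B was called (edgeR adjusted p = 0.0370 and 0.0356) and LHCB4.3 was not, and without memory-line replicate 1 the called member was LHCB1.5 (2.01, edgeR adjusted p = 0.00650).

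On azacytidine, no member was called between the memory line and wild type by edgeR, against 0.0454% of all genes tested in either direction. LHCB4.3 was the only member at an unadjusted p under 0.05 by edgeR, against 2656 of the 22031 genes tested. It was the only member called by DESeq2 (adjusted p = 0.0277) and 1 of 5 called by voom. It was also the only member whose replicates did not overlap, all below wild type. Over all genes, 15.5% lay wholly below and 17.9% wholly above, a position that 0 members had. The median was -0.23, with 42 negative and 3 positive values, beside 0.01 over all genes tested. It was -0.98 without treated memory-line replicate 1 and 0.19 without treated memory-line replicate 2. This comparison and that of azacytidine in the memory line share the treated memory-line samples.

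**Figure D5:**
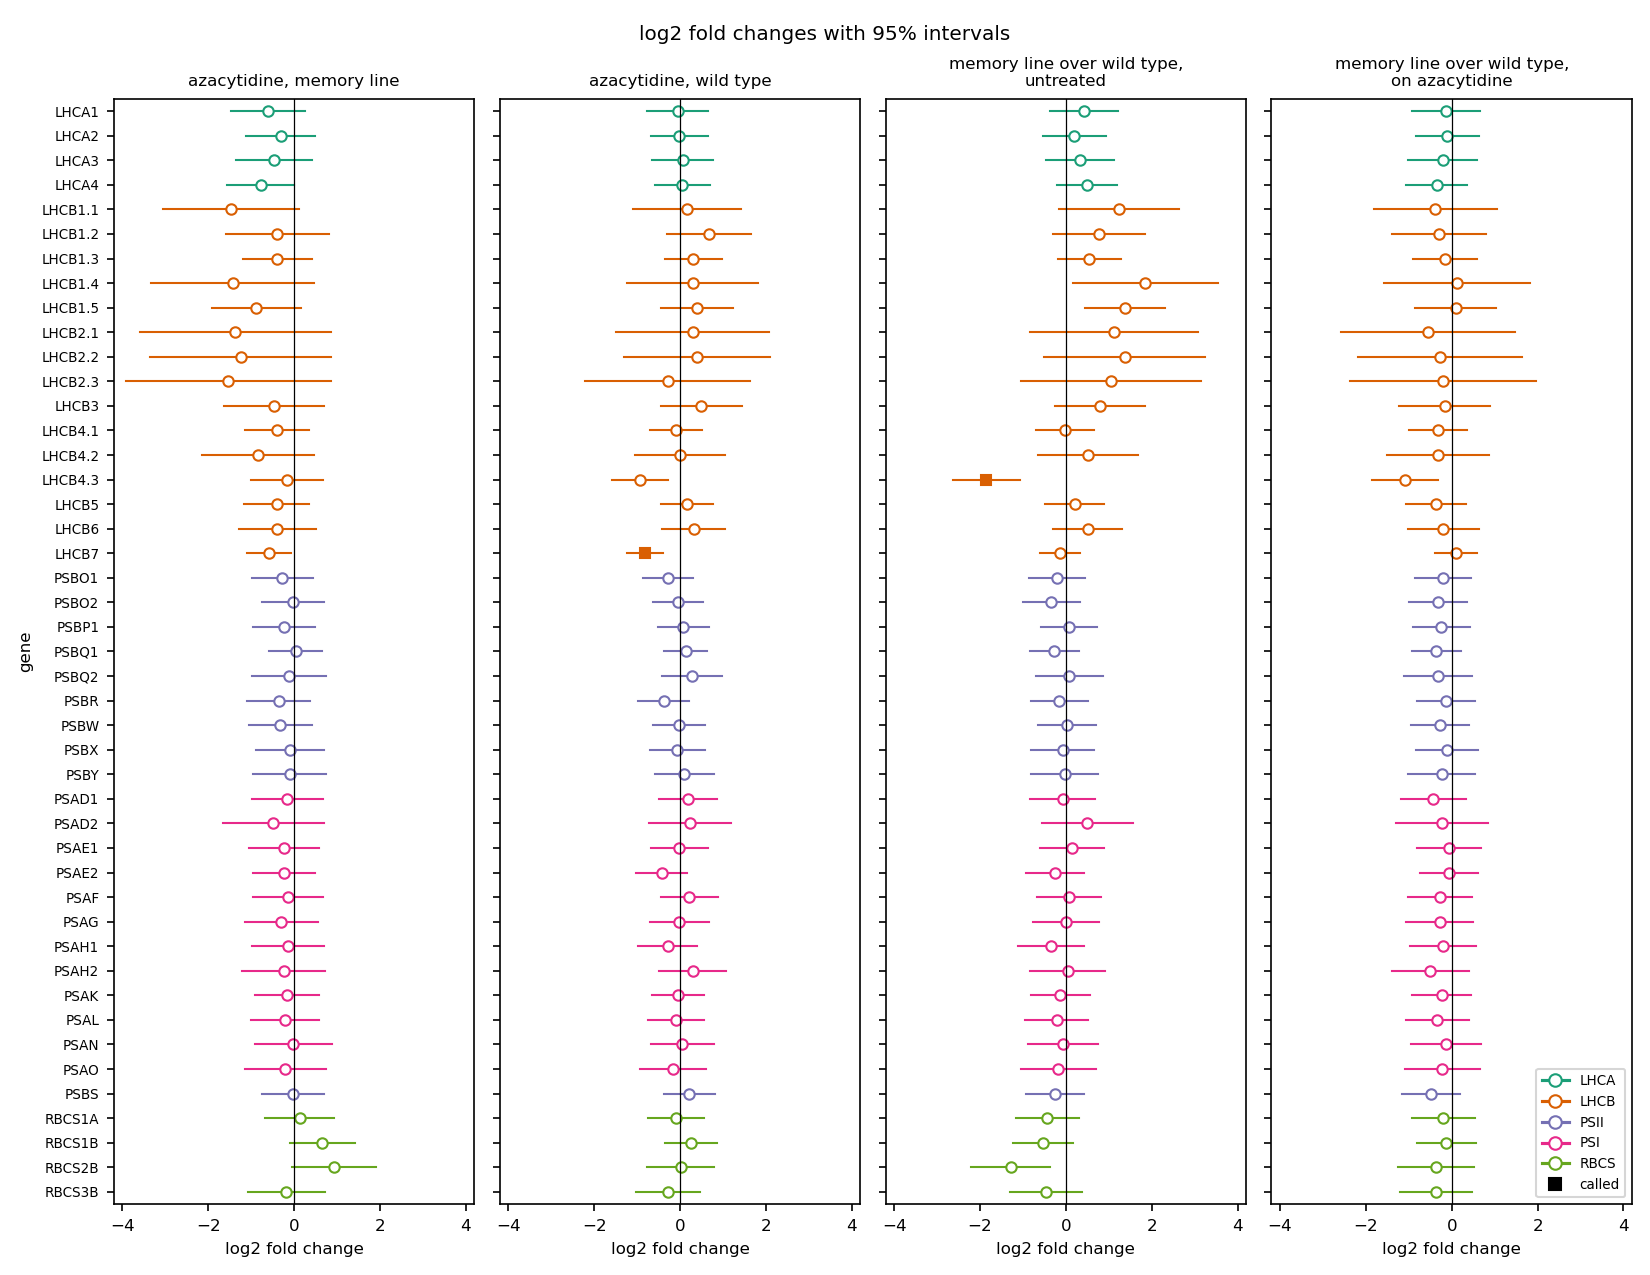
Log2 fold changes (points) with 95% intervals (lines) of the 45 genes in 4 comparisons, coloured by class, with filled squares for the genes called at an edgeR adjusted p under 0.05. LHCB7 is called for azacytidine in wild type and LHCB4.3 for the untreated memory line, the intervals of the LHCB2 genes are the widest, and RBCS genes stand left of 0 for the untreated memory line.

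The difference between both azacytidine responses, memory line minus wild type, gave no call among the members by edgeR. Over all genes tested, edgeR called 0.0182% in either direction. By edgeR 0 members had an unadjusted p under 0.05, against 1891 of the 22031 genes tested. DESeq2 called 0 members, and voom called LHCB1.1 and LHCB1.4. The median was -0.30 with 34 negative and 11 positive values. It was -0.75 and 0.26 without memory-line replicates 1 and 2, and -0.93 and 0.11 without treated memory-line replicates 1 and 2. For LHCB1.1 the difference was -1.63 (-3.65 to 0.40) and for RBCS2B it was 0.91 (-0.33 to 2.15). Only 5 members had an interval within 1 log2 unit of 0, so differences between the responses of over 2-fold lay within the interval for most members. The median half-width of these intervals was 1.07 log2 units.

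Among the genes known to control this set, GLK1, a transcription factor that activates antenna and chlorophyll genes, had 41.6 and 26.9 CPM in the treated memory line, 25.5 and 33.8 CPM in the untreated memory line, 75.2, 63.6 and 55.2 CPM in treated wild type and 44.4, 35.8 and 40.8 CPM in untreated wild type. It rose in treated wild type by 0.68 on the log2 scale (SE 0.17, edgeR adjusted p = 0.0377). GNC, a GATA factor that promotes greening, had 30.2, 29.2 and 23.9 CPM in treated and 12.6, 16.9 and 19.9 CPM in untreated wild type and rose by 0.75 (SE 0.18, edgeR adjusted p = 0.0300). Of the 11 tested regulators, these 2 were called higher and 0 lower for azacytidine in wild type, and 0 were called in the other comparisons. GLK2 had log2 fold changes of 0.09 for azacytidine in wild type and 0.04 for the untreated memory line (-0.45 to 0.54). In the chlorophyll pathway, 0 of 19 genes were called in any comparison: for azacytidine in wild type HEMA1 of its first step had 0.57 (-0.21 to 1.34), GUN4, the cofactor of magnesium chelatase, 0.60 (0.12 to 1.07), and CHLH, the large subunit of that enzyme, 0.43 (-0.03 to 0.88). None of 13 electron transport and ATP synthase genes, 6 Calvin-Benson genes, 14 light-harvesting-like, stress and assembly genes and 9 clock genes was called in any comparison. CCA1, a morning clock factor, had 4.25 and 2.63 CPM in the treated memory line, 6.02 and 16.5 CPM in the untreated memory line, 3.92, 3.56 and 8.55 CPM in treated wild type and 2.74, 11.4 and 7.72 CPM in untreated wild type, and its partner LHY had a log2 fold change of -0.41 for azacytidine in the memory line (-1.30 to 0.49). For the clock list that comparison had a median of -1.01 with all 9 values negative, from -1.71 to -0.41. Of these 9 genes, 8 lay wholly below the untreated memory line, against 16.1% of all genes. An unadjusted p under 0.05 by edgeR was reached by 7 of them, against 1979 of the 22031 genes tested.

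Some markers of other tissues were called in treated wild type as well. Of 17 tested root markers 5 were called lower and 0 higher there, all genes of the endodermis. They were CASP2 (-1.40, edgeR adjusted p = 0.00752), CASP4 (-1.24, 0.0205), PER64 (-1.16, 0.0118), CASP1 (-1.005, 0.00822) and ESB1. Of the exon bases of ESB1, 84.3% lie under exons of the opposite strand. The 18 root markers summed to 110.1, 115 and 110.3 CPM in treated and 130.5, 142 and 158 CPM in untreated wild type, without overlap. Of 12 shoot and leaf markers, SPCH (1.02, edgeR adjusted p = 0.0258) and YAB2 (0.75, 0.0300) were called higher and EPFL9 (-0.58, 0.0323) lower, with summed levels of 180.1, 187 and 199 CPM in treated and 181, 183 and 172 CPM in untreated wild type. No marker of either list was called in another comparison. Even so, the 17 root markers had a median log2 fold change of -0.57 for azacytidine in the memory line, beside -0.59 in wild type. In the memory line 10 of them lay wholly below the untreated replicates and 2 wholly above, against 16.1% and 19.9% of all genes. In wild type 9 lay wholly below and 1 wholly above, against 15.2% each. The part of these markers in the values of LHCB7, GLK1 and GNC was not tested.

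The counts of several members cannot be told apart from those of a gene on the opposite strand. LHCB1.5 (AT2G34420) lies wholly under AT2G08665, and the partner's counts were 0.916 to 0.948 times those of LHCB1.5 in all 10 replicates. AT1G55673 lies wholly under PSAG (AT1G55670) and had 0.746 to 0.898 times its counts, and AT3G16130, which covers 53.3% of the exon bases of PSAH1 (AT3G16140), had 0.534 to 0.710 times its counts. AT4G28755, of whose bases 92.3% lie under PSAE1, had 0.437 to 0.617 times the counts of PSAE1. LHCB4.3 (AT2G40100), LHCB7 (AT1G76570) and RBCS2B (AT5G38420) have no exon under an exon of the opposite strand. The library kit named in the labels does not mark the strand, and among reads with a single alignment 48.3% to 49.3% were counted for no gene. What part of the members' reads was counted elsewhere was not tested.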

How the data were processed

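RNA was sequenced from whole plants as 26 technical libraries of 10 biological replicates, with a TruSeq v2 kit and 100-base reads, per the labels' protocols. The authors deposited raw read counts per gene, whole numbers that were not normalized. The build TAIR10 and the tool DESeq2 are named in the submitters' processing notes, and neither the aligner nor the counter was given in the sources used here. The 5 entries that name no gene were left out of library sizes and tests. Of the reads with a single alignment, 48.3% to 49.3% were counted for no gene. Whether some of these lay within genes, on the opposite strand, was not tested.

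The sums over the technical libraries of a replicate held 11412839 to 13544859 gene counts. Counts were fitted with edgeR 4.0.16 (R 4.3.3), using filterByExpr (minimum count 10, minimum total 15), TMM factors and the robust quasi-likelihood test, over all 4 groups in 1 fit. The p-values were adjusted by the Benjamini-Hochberg method over 22031 genes and called under 0.05. The standard error is the absolute log2 fold change divided by the root of F, and 95% intervals use it with the fit's degrees of freedom. Gene names, positions and sequences came from TAIR10.1, in which 32548 of the 33977 identifiers were found. Alternatives were DESeq2 size factors, TMM without the members, DESeq2 1.42.0, limma 3.58.1 (voom) on technical libraries, other filters, the compared groups only, the first technical library, summed paralogues, a replicate block and leaving out each replicate. Voom used a single correlation between technical libraries for all genes, which may be too low for members whose replicates lay far apart. The edgeR fit was checked on simulated data in which genes varied independently and equally in all groups. That check does not cover genes that shift together between replicates, as the members did in the memory line.

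Values per replicate are given for every called member, for the member with the highest level and the 2 with the largest log2 fold changes of each class and comparison, and for LHCB1.1 to LHCB1.3, LHCB4.3, LHCB7, PSBS and the RBCS genes. The members, lists and tests were chosen with earlier results of these data known.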

Additional observations from a re-analysis of the deposited data

Results flagged for a closer look

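The share of reads that aligned to more than 1 place is outside the gene counts and was used in no comparison. Its highest value in untreated wild type was 10.5%. It was above that level in 4 replicates, at 10.8% in treated memory-line replicate 1, 13.6% in treated memory-line replicate 2, 25.7% in untreated memory-line replicate 2 and 11.4% in treated wild-type replicate 3. Of the untreated memory-line replicates, the one with the higher share also had the higher summed level of the members, and of the treated memory-line replicates it was the one with the lower summed level. The part of these reads in the members' values was not tested.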

How the results depend on the processing

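Counts of called members were small and moved with the method, as did those over all 22031 genes tested. Over all genes, voom called 3863 for azacytidine in wild type, 683 for azacytidine in the memory line and 1746 between the untreated lines. DESeq2 called 2038, 384 and 904 in the same comparisons, and edgeR 1408, 163 and 258. For azacytidine in wild type, where 1 member was called, there were 2 with the replicate block and 2 with DESeq2 (LHCB7 and LHCB4.3 in both), 4 with voom and 0 to 2 when single replicates were left out. For azacytidine in the memory line, where 0 were called, voom gave 3, and leaving out single replicates gave 0 to 1. For the untreated memory line against wild type, where 1 was called, there were 0 without the filter on low counts, 0 with the compared groups only, 8 with voom and 0 to 1 when single replicates were left out. For the memory line on azacytidine, where 0 were called, there was 1 with the replicate block and 1 with DESeq2 (LHCB4.3 in both), and 5 with voom. For the difference between both responses, where 0 were called, voom gave 2. With TMM computed without the members, library sizes also left them out, and their summed level was higher in every replicate of all 4 groups. It was then 94044 and 45837 CPM in the treated and 54214 and 113313 CPM in the untreated memory line. In treated wild type it was 82926, 84306 and 80049 CPM, and in untreated wild type 84625, 86829 and 70999 CPM. With the replicate block LHCB4.3 had an adjusted p of 0.0226 for azacytidine in wild type and 0.0352 for the memory line on azacytidine (edgeR). LHCB7 kept its call in 14 of 19 alternatives and LHCB4.3 in 9 of 19. No called direction was reversed.

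The labels do not say that equal replicate numbers mark a pairing. Deviations of same-numbered treated and untreated wild-type replicates correlated at 0.146, 0.0011 and -0.0049 across genes. Between the treated memory line and treated wild type the correlations were 0.117 and 0.127, and between the untreated lines 0.013 and 0.140. Treated and untreated memory line gave -0.120. With 2 replicates in both groups, this value is the same for both numbers by construction and counts only once. Same-numbered treated memory-line and untreated wild-type replicates gave 0.117 and 0.0112, and untreated memory-line and treated wild-type replicates 0.0304 and 0.0604. Of 6 wild-type replicates, 2 correlated best with their own number among the 3 replicates of the other treatment. Leaving out a memory-line replicate leaves 1 in its group, which is then assumed to vary like the other groups. Precision was limited by the 2 memory-line replicates per group, which lay about 2-fold apart, and less by depth, since the least abundant member still had 151 counts in a replicate.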
